A study of Mus musculus with 6 samples.

Results

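The integrin and laminin subunits comprise 18 integrin alpha, 8 integrin beta and 11 laminin genes, together 37 of the 39179 genes counted in the RNA of primary osteosarcomas. They were taken from the counted genes by symbol, as every gene named Itga, Itgb, Lama, Lamb or Lamc with a subunit number or letter, and all 37 passed the filter on low counts (16839 genes did). The tumors came from 3 Cd44+/+; Nf2Δ2/+ mice (No244, No316 and No368) and 3 Cd44-/-; Nf2Δ2/+ mice (No203, No279 and No364) on a mixed background of C57BL/6, 129/Sv and FVB, so that both genotypes carried the Nf2 mutation that gives rise to osteosarcoma. The comparison asks how the levels of these adhesion genes differed between Cd44-positive and Cd44-negative tumors. The labels say in their extraction protocol that RNA came from cell lines, whereas the tissue label and the methods of the study name osteosarcoma tissue. The age of the mice is not given in the labels.

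Integrins are receptors of 1 alpha and 1 beta subunit that cross the cell membrane and tie the extracellular matrix to the actin cytoskeleton, and each alpha and beta combination binds its own ligands, such as laminins, collagens or proteins with an RGD sequence. Laminins are trimers of an alpha, a beta and a gamma chain that form the sheet of basement membranes around vessels, muscle fibers and epithelia. In bone, integrins fasten osteoblasts and osteoclasts to the matrix, and CD44, the gene product missing in the Cd44-/- mice, is itself a matrix receptor, for hyaluronic acid.

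The libraries held from 18076388 to 26954142 counts, and 3 counts, taken as the smallest detectable level, were from 0.0990 to 0.252 CPM. CPM are counts set relative to the library size, here scaled with the TMM factors of edgeR, which correct for libraries dominated by few genes. Where 3 values are given for a genotype, they stand for No244, No316 and No368 (Cd44+/+) or for No203, No279 and No364 (Cd44-/-), in this order. Cd44 itself was at 137 to 243.6 CPM in Cd44+/+ and at 15.7 to 61.8 CPM in Cd44-/- tumors. No316 and No368 differed by less than the sampling noise for 29 of the 35 subunits with enough counts (82.9%) and for 87.2% of 16671 genes, against 16.4% to 21.7% of genes in the pairs of No316 with any other tumor, so they were counted as 1 sample in each mean and SD. No244 had 55.2% of its counts on mitochondrial genes (5.94% to 12.5% in the other tumors) and 17168 CPM in the sum of 5 skeletal muscle markers, which reached 13.5 to 547 CPM elsewhere. No364 had 132271 CPM in the sum of 8 hepatocyte markers, which reached 79.5 to 185 CPM elsewhere. Of the 8 osteoblast markers, Sp7, Alpl, Ibsp and Bglap were low in No279 and No364. The sum of all 8, which include the collagen genes Col1a1 and Col1a2, differed less in No279. It was 22517 CPM in No279 and 3689 CPM in No364, against 33602 to 84591 CPM in the other tumors. Sp7, the osteoblast transcription factor, was at 3.96 CPM in No279 and 0.314 CPM in No364 against 192 to 333 CPM in the other 4 tumors, Alpl, the bone alkaline phosphatase, at 7.16 and 19.6 CPM against 481 to 718 CPM, and Ibsp, a bone matrix protein, at 3.27 and 2.25 CPM against 640.1 to 4820.2 CPM. Bglap, which encodes osteocalcin, was at 4.79 and 6.80 CPM against 269 to 3481 CPM. By Xist and Ddx3y, which were looked at after the counts had been seen, No279 and No364 were male and the other 4 tumors female, although Eif2s3y, on the Y chromosome, had 39 counts in No244, so sex and genotype cannot be told apart in full.

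Between the genotypes, no integrin or laminin subunit passed the threshold of edgeR's quasi-likelihood test (adjusted p under 0.05 over all genes tested, 0 of 37, where 0.0% of all tested genes passed). The biological coefficient of variation was 0.708, which means that the level of a gene typically varied by this fraction between libraries of the same genotype. No316 and No368 entered it as separate libraries although they were nearly alike, so it does not measure the spread between independent tumors. At an unadjusted p under 0.05, 3 subunits remained, Itga3 and Itga8 with higher and Lama1 with lower levels in Cd44-/- tumors, or 3 of 37 against 10.7% of all genes. With No316 and No368 summed 1 subunit remained, Lama1 (4.26% of genes), and without No364 there were 6 (8.82% of genes). DESeq2 with its defaults called 1 subunit, Lama1, against 2.33% of all genes with an adjusted p, and called 0 with No316 and No368 summed (0.797% of genes). Without No364 it called Lama1 again (2.36% of genes), and 7 subunits had an unadjusted p under 0.05 (9.53% of genes). limma-voom called 0. The log2 fold change was above 0 for 26 and below 0 for 11 subunits, with a median of 0.43 against 0.11 over all genes tested. It was above 0 for 19 and below 0 for 7 of the 26 integrin genes (median 0.44), and above 0 for 7 and below 0 for 4 of the 11 laminin genes (median 0.29). Without No279 the median of the subunits was -0.031, against 0.026 over all genes.

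**Figure D1:**
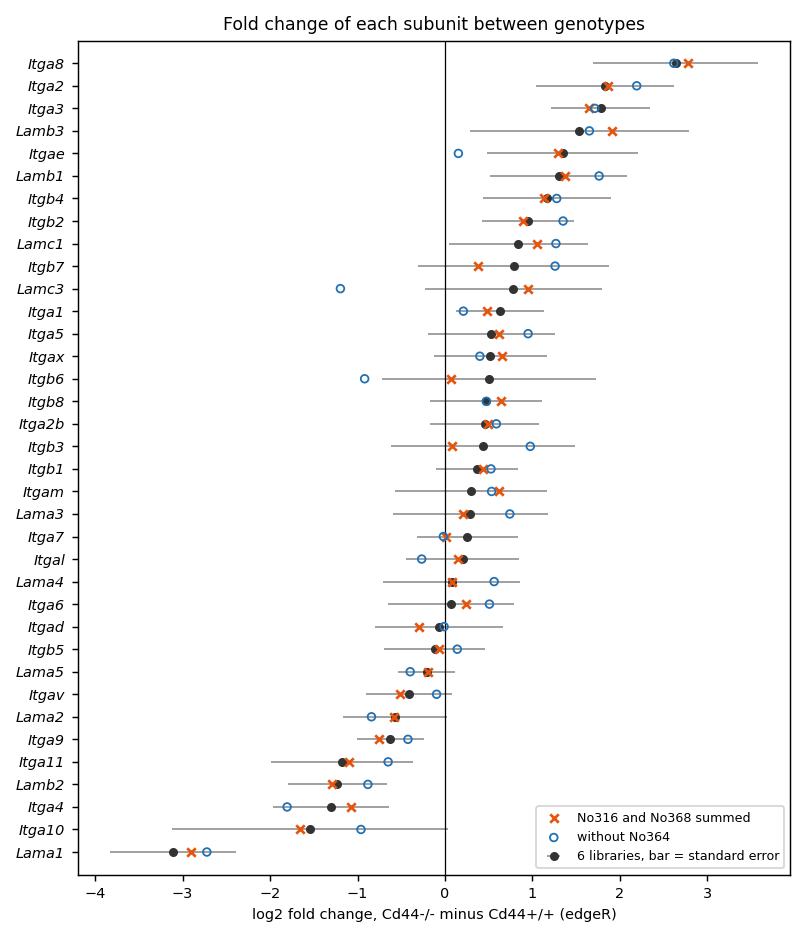
Log2 fold change of 36 of the 37 subunits between Cd44-/- and Cd44+/+ tumors from edgeR (dots, bars are standard errors), with No316 and No368 summed (crosses) and without No364 (open circles). Lama1 has the lowest value at -3.11 and Itga8 the highest at 2.64, and the circle lies far from the dot for Itgae. It lies on the other side of 0 for Lamc3 and Itgb6 and, closer to the dot, for Itgal, Itgb5 and Itga7.

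The levels varied widely between tumors. Among the 36 subunits with more than 3 counts in every tumor, the highest tumor was at a median of 6.49 times the lowest, from 1.49 for Lama5 to 208.0 for Itga10, whereas the median over 15251 genes was 3.84. No279 was the highest tumor for 19 of the 37 subunits and for 21.5% of all genes, and No364 was the lowest tumor for 13 subunits and for 24.6% of all genes. The subunits took 0.364% of the counts in No279 and 0.0759% in No364. Fewer cells of a type and less RNA per cell cannot be told apart in such bulk tissue.

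**Figure D2:**
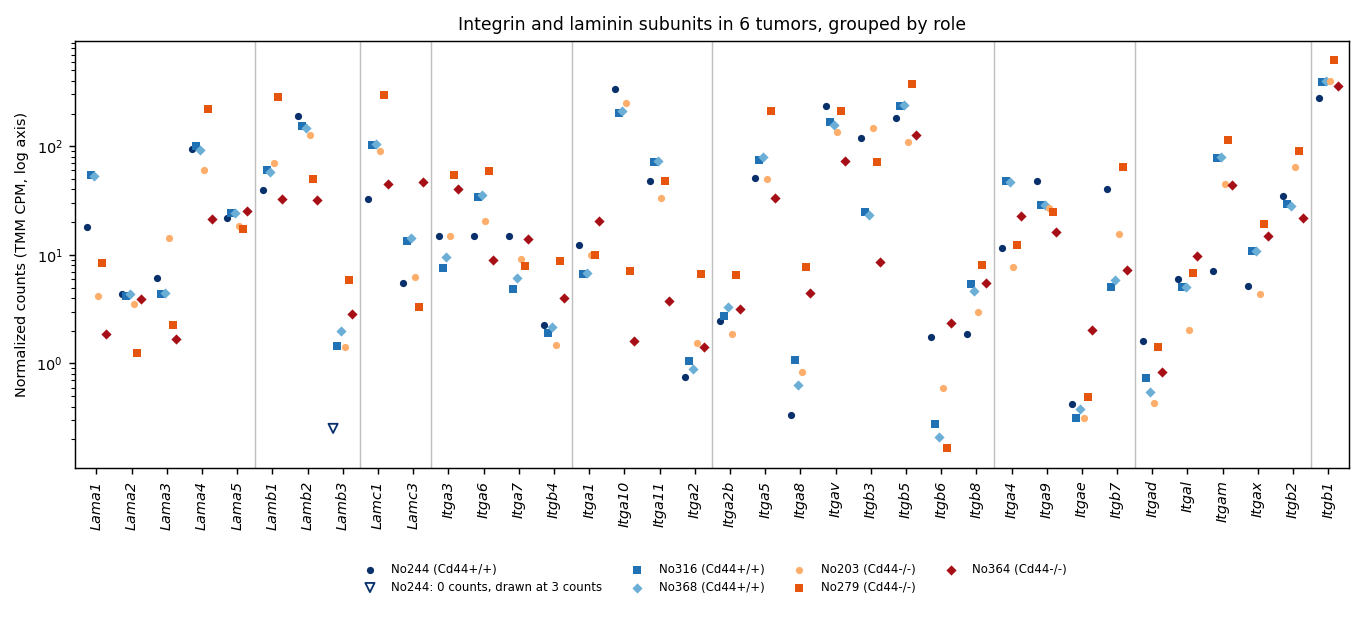
Normalized counts (TMM CPM, log axis) of 36 of the 37 subunits in each of the 6 tumors, grouped by role from the laminin chains on the left to Itgb1 on the right. The squares of No316 and the diamonds of No368 lie on each other for most genes, the orange squares of No279 are often the highest points, and the open triangle marks Lamb3 in No244 with 0 counts, drawn at the level of 3 counts.

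For 6 of the 37 subunits the genotypes did not overlap (19.1% of all genes), Itga2 being higher in each Cd44-/- tumor than in any Cd44+/+ tumor (9.49% of genes) and Itga9, Itga11, Lama1, Lama2 and Lamb2 being lower (9.57% of genes). With library size in place of the TMM factors, 4 subunits did not overlap (12.2% of genes), all of them higher in Cd44-/- tumors (7.52% of genes), Itga1, Itga3 and Itga7 among them, and 0 of these were among the 6. The shift lay mainly in No244, whose TMM factor was 0.565 against 0.740 to 1.32 in the others. Leaving the mitochondrial genes out before the scaling gave the same 6 subunits (18.9% of genes), and taking No316 and No368 as 1 sample also left 6 (20.9% of genes). Without No364, 10 did not overlap (28.7% of genes), the 6 among them.

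Of the laminin alpha chains, Lama1 showed the lowest fold change of all subunits. Lama1 encodes the alpha chain of the laminin that is laid down first in the embryo and lies on chromosome 17 of GRCm38 from 67697259 to 67822647 (plus strand), with no other annotated gene on it. Its level was 17.98, 54.0 and 53.8 CPM in Cd44+/+ and 4.20, 8.45 and 1.88 CPM in Cd44-/- tumors. Every Cd44-/- tumor was thus below every Cd44+/+ tumor, the nearest being No279 and No244. The mean was 35.9 ± 25.4 (SD, n = 2) in Cd44+/+ tumors against 4.85 ± 3.33 (SD, n = 3). The edgeR fit, in which all 6 libraries entered singly here and below unless stated, put the log2 fold change at -3.11 (standard error 0.72), with an adjusted p of 0.452 in edgeR and of 0.0079 in DESeq2. It ran from -3.78 to -2.72 when any tumor was left out. With No316 and No368 summed it was -2.91, with an adjusted p of 0.818 in edgeR and 0.146 in DESeq2, so the call of DESeq2 was lost, and without No364 DESeq2 kept it (adjusted p = 0.0121). With library size alone No244 had 10.1 and No279 10.4 CPM, and the genotypes overlapped.

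Each laminin trimer holds 1 chain of each kind, and the chains of a kind were therefore also set against each other within each tumor, as CPM per kilobase of exon. This share does not depend on the scaling of the library. The integrin alpha subunits were treated in the same way. There the genotypes did not overlap for the shares of Itga11, which was lower in Cd44-/- tumors, and of Itga2 and Itga3, which were higher. The shares of Lama2 and Itga9 overlapped, although their levels did not. How often such shares do not overlap was not taken over all genes. Lama1 made up 15.02%, 33.5% and 34.5% of the alpha chains in Cd44+/+ and 5.07%, 4.17% and 4.22% in Cd44-/- tumors. The lowest Cd44+/+ share was above each Cd44-/- share, with a mean of 24.5% ± 13.4 (SD, n = 2) in Cd44+/+ against 4.49% ± 0.504 (SD, n = 3) in Cd44-/- tumors. Lama4, the alpha chain of vessel walls and mesenchymal tissue, was the main alpha chain in 5 tumors, with 48.1% to 62.6% of the alpha chains in Cd44+/+ tumors and 58.1% and 87.3% in No203 and No279. In No364 it had 38.6%, below the 48.6% of Lama5, the broadly expressed alpha chain of adult basement membranes.

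**Figure D3:**
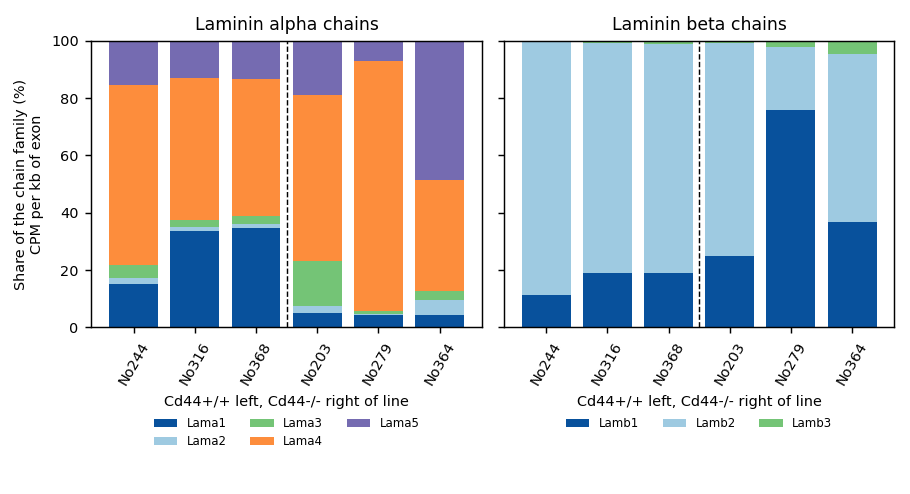
Share of each chain in the summed laminin alpha and beta levels (percent of CPM per kilobase of exon) in the 6 tumors, with Cd44+/+ tumors left and Cd44-/- tumors right of the dashed line. Lama1 has at least 15.02% of the alpha chains on the left and at most 5.07% on the right, and Lamb1 rather than Lamb2 is the main beta chain in No279 (75.7%).

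As a level, Lama4 was at 93.4, 99.8 and 93.4 CPM in Cd44+/+ and at 60.1, 220.3 and 21.5 CPM in Cd44-/- tumors. The Cd44-/- tumors lay on both sides of the Cd44+/+ tumors, and the log2 fold change of 0.08 (standard error 0.78) was close to 0. The 5 endothelial markers summed to 184 to 232 CPM in Cd44+/+ tumors and to 72.8 CPM in No364 and 339 CPM in No279, with none of them at 0, and their part in the level of Lama4 was not tested. Lama2, the alpha chain of muscle basement membranes, was at 4.37, 4.21 and 4.32 CPM in Cd44+/+ and 3.53, 1.25 and 3.93 CPM in Cd44-/- tumors. The genotypes did not overlap, but No364 was lower than No316 by less than the difference between the Cd44-/- tumors, and the standard error of 0.59 exceeded the log2 fold change of -0.57 in size (unadjusted p = 0.372 in edgeR, and a fold change of -0.20 without No279). Lama5 varied least of all subunits, from 17.1 to 25.5 CPM, and Lama3, the alpha chain of epithelial laminin, ranged from 1.67 CPM in No364 to 14.2 CPM in No203.

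Among the beta chains, Lamb2 and Lamb1 had fold changes of opposite sign. Lamb2, the beta chain of mature vessels, muscle and kidney, was at 191, 155 and 147 CPM in Cd44+/+ and at 127, 50.4 and 32.3 CPM in Cd44-/- tumors. The genotypes did not overlap, and No203 was nearer to the Cd44+/+ tumors than to the other Cd44-/- tumors. The mean of 171 ± 28.3 (SD, n = 2) in Cd44+/+ stood against 70.0 ± 50.4 (SD, n = 3) in Cd44-/- tumors. Fitted over the 6 libraries, the log2 fold change was -1.23 with a standard error of 0.56 (unadjusted p = 0.0671 and adjusted p = 0.473 in edgeR), and it was -1.30 with No316 and No368 summed, -2.02 without No203 and -0.88 without No364. Lamb1, the beta chain of embryonic and most adult laminins, is given in each tumor because of this contrast, after its values had been seen. It was at 39.7, 59.99 and 57.6 CPM in Cd44+/+ and at 69.7, 284 and 32.9 CPM in Cd44-/- tumors, where No279 was the highest and No364 the lowest of all 6. The standard error of its log2 fold change, 1.30, was 0.79 (adjusted p = 0.548 in edgeR).

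The Lamb1 share did not overlap between the genotypes. The shares of the beta chains add up to the whole, and Lamb3 held at most 4.72% of it. The Lamb2 share, which did not overlap either, is therefore nearly the remainder and no separate result. The Lamb3 share overlapped. Lamb1 made up 11.3%, 19.1% and 19.1% of the beta chains in Cd44+/+ and 24.96%, 75.7% and 36.6% in Cd44-/- tumors. The nearest tumors, No368 and No203, were apart by less than the Cd44+/+ tumors were among themselves. Lamb2 had 79.9% to 88.7% of the beta chains among the Cd44+/+ tumors, but 74.3%, 21.9% and 58.7% in Cd44-/- tumors. The shares are a description without a test. Lamb3, the beta chain of epithelial laminin, had 0 counts in No244, which allows up to 0.252 CPM, and 1.43 to 5.88 CPM in the other tumors.

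Lamb2 lies on chromosome 9 of GRCm38 from 108479736 to 108490530 (plus strand). Its promoter is printed because this chain carried the contrast with Lamb1. The start listed by RefSeq lies within the gene as given here, so the printed bases include part of the gene. The 250 bases before the start listed by RefSeq (GRCm38.p6, plus strand, chr9:108479612-108479861) have a GC content of 43.6%, below the median of 52.4% over 32851 promoters, and hold none of the motifs searched below.
Lamb2: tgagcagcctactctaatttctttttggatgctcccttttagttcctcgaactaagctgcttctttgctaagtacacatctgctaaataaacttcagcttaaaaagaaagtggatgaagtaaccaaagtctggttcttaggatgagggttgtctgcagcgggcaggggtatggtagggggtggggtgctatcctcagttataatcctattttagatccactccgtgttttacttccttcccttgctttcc

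The gamma chain Lamc1, shared by most laminins, was at 32.7, 104 and 104 CPM in Cd44+/+ and at 89.7, 295 and 45.2 CPM in Cd44-/- tumors. No244 was lowest and No279 highest, and the genotypes overlapped (log2 fold change 0.84, standard error 0.79). Lamc3, a gamma chain of a few tissues, was at 47.3 CPM in No364 and at 3.33 to 14.1 CPM in the other 5 tumors. Its log2 fold change of 0.78 turned to -1.20 without No364. The hepatocyte markers, all 8 of which were counted in every tumor, were also highest in No364, and their part in the level of Lamc3 was not tested.

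The subunits of laminin receptors are the alpha subunits Itga3, Itga6 and Itga7, which pair with beta 1, and Itgb4, which pairs with Itga6 in the hemidesmosomes of epithelia. Itga3 was at 14.9, 7.51 and 9.49 CPM in Cd44+/+ and at 14.8, 54.2 and 40.3 CPM in Cd44-/- tumors. No279 and No364 stood above all other tumors, while No203 was level with No244. The mean of 11.7 ± 4.51 (SD, n = 2) in Cd44+/+ stood against 36.4 ± 19.99 (SD, n = 3) in Cd44-/- tumors. Fitted over the 6 libraries, the log2 fold change was 1.78 with a standard error of 0.57 (unadjusted p = 0.0171 and adjusted p = 0.452 in edgeR). With No316 and No368 summed it was 1.64 (unadjusted p = 0.0590). The 5 epithelial markers summed to 2.61 to 3.11 CPM in Cd44+/+ tumors and to 5.35, 36.3 and 1969 CPM in Cd44-/- tumors, Krt19 being at 0 in No244, No316, No368 and No279. Their part in the level of Itga3 was not tested.

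Itga6, the highest of these subunits per kilobase of exon by the median over the 6 tumors, although Itga3 exceeded it in each tumor but No316 and No368, was at 14.9, 34.3 and 35.7 CPM in Cd44+/+ and at 20.5, 59.8 and 9.05 CPM in Cd44-/- tumors. The Cd44-/- tumors held both the highest and the lowest value (log2 fold change 0.07, standard error 0.72). Itga7, the laminin receptor of muscle, ranged from 4.83 to 15.04 CPM, and Itgb4 from 1.47 to 8.75 CPM. Both had fold changes above 0 (0.25 and 1.16 on the log2 scale) with p-values of 0.675 and 0.157 before adjustment in edgeR. The highest level of Itga7 was that of No244, the tumor with the skeletal muscle markers, and it was followed by No364 with 14.0 CPM, where these markers were lowest.

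The Itga3 gene lies on chromosome 11 of GRCm38 from 95044474 to 95076801 (minus strand), and its promoter is shown as that of the subunit with the highest Cd44-/- mean relative to the Cd44+/+ mean among the laminin receptors. The start used lies within the gene as given here, so the printed bases include part of the gene. Another RefSeq window of Itga3 (chr11:95069149-95069448), which holds a RUNX core and a GC box, is not printed. The 250 bases before the start (RefSeq, GRCm38.p6, minus strand, chr11:95076715-95076964) have a GC content of 67.6% and hold 3 copies of the GC box GGGCGG, printed in capitals.
Itga3: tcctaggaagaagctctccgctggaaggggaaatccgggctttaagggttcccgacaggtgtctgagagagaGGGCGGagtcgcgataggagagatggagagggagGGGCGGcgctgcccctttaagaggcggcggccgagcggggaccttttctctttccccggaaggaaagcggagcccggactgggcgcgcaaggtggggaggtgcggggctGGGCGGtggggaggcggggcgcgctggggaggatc

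Of the collagen receptor alpha subunits, all of which pair with beta 1, Itga10 was the most abundant per kilobase of exon in the Cd44+/+ tumors and No203, while Itga11 exceeded it in No279, and Itga1 and Itga11 did in No364. Itga10, a collagen receptor known from chondrocytes, lies on chromosome 3 of GRCm38 from 96645584 to 96664519 (plus strand), where 1 annotated gene, Gm42957, shares exon sequence with it. Its level was 337, 202 and 212 CPM in Cd44+/+ tumors and 249 CPM in No203, but 7.07 CPM in No279 and 1.62 CPM in No364. The level was thus high in 4 tumors, No203 included, and low in No279 and No364, so the difference did not follow the genotype alone. Its log2 fold change of -1.54 was no larger in size than its standard error of 1.57 (adjusted p = 0.716 in edgeR). Without No203 it was -5.88, and without No364 -0.96, while DESeq2 gave no adjusted p because of an outlying count.

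**Figure D4:**
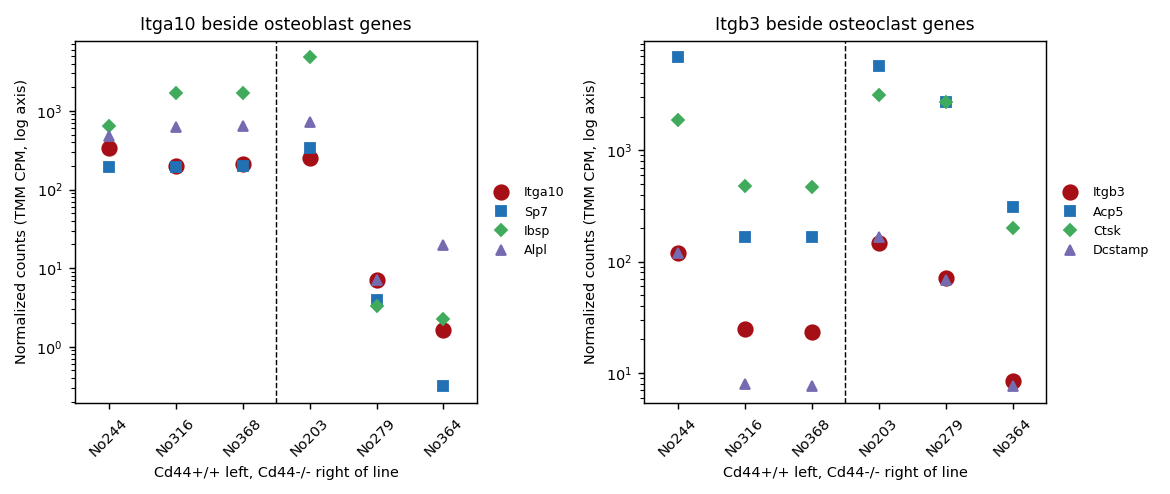
Levels (TMM CPM, log axis) of Itga10 beside the osteoblast genes Sp7, Ibsp and Alpl on the left, and of Itgb3 beside the osteoclast genes Acp5, Ctsk and Dcstamp on the right, in the 6 tumors with Cd44+/+ left of the dashed line. Itga10 is at 202 CPM or more in the 4 tumors where Sp7 is at 192 CPM or more and at most 7.07 CPM in No279 and No364, and Itgb3 is lowest in No364.

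The tumors with little Itga10 were those with little Sp7, Ibsp and Alpl. The full list of 8 osteoblast markers, which includes the collagen genes Col1a1 and Col1a2, summed to 33602 to 52746 CPM in Cd44+/+ tumors and to 84591, 22517 and 3689 CPM in Cd44-/- tumors, with no marker at 0 in any tumor. The 5 chondrocyte markers summed to 11.6 to 40.6 CPM in Cd44+/+ and to 26.3 to 175 CPM in Cd44-/- tumors, with Col9a1 at 0 in No279 and Col2a1 and Col9a1 at 0 in No364. The part of either cell type in the level of Itga10 was not tested. Per kilobase of exon Itga10 made up 33.4% to 52.0% of all integrin alpha subunits in Cd44+/+ tumors and 48.7% in No203, against 1.07% in No279 and 0.702% in No364.

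The Itga10 promoter is printed because its ratio between the highest and the lowest tumor was the largest. The 250 bases before its start (RefSeq, GRCm38.p6, plus strand, chr3:96645334-96645583) have a GC content of 48.0% and hold none of the motifs searched below.
Itga10: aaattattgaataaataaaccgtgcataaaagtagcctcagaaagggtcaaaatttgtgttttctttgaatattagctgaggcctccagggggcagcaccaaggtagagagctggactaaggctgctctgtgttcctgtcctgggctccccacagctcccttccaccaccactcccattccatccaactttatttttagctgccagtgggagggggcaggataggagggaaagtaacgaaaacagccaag

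Itga11, the receptor for fibrillar collagen on mesenchymal cells, was at 48.2, 71.3 and 72.7 CPM in Cd44+/+ and at 33.6, 47.7 and 3.77 CPM in Cd44-/- tumors. The genotypes did not overlap, although No279 and No244 were nearly level and No364 was far below the rest. Its log2 fold change was fitted at -1.17 (standard error 0.81, adjusted p = 0.589 in edgeR), -0.65 without No364 and -1.77 without No279. Itga2, the collagen receptor of platelets and epithelia, was at 0.756, 1.04 and 0.882 CPM in Cd44+/+ and at 1.55, 6.64 and 1.41 CPM in Cd44-/- tumors. The Cd44-/- values all exceeded the Cd44+/+ values, with No279 standing out, at a low level throughout (log2 fold change 1.83, standard error 0.79, unadjusted p = 0.0555 in edgeR). Without No279 it was 0.72 (unadjusted p = 0.277). With library size alone No364 lay below No316 and No368, and the genotypes overlapped. Itga1, a collagen receptor of mesenchymal and smooth muscle cells, ranged from 6.71 to 20.3 CPM and was highest in No364.

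The subunits of receptors for RGD ligands, such as fibronectin, vitronectin and the bone protein osteopontin, held some of the highest levels. Itgb5, which pairs with Itgav in a vitronectin receptor, was at 181, 237 and 239 CPM in Cd44+/+ and at 108, 372 and 126 CPM in Cd44-/- tumors, so that the Cd44-/- tumors enclosed the Cd44+/+ tumors (log2 fold change -0.12, standard error 0.58). Itgav, the alpha subunit shared by 5 beta subunits, ranged from 73.7 CPM in No364 to 236 CPM in No244, and Itga5, the fibronectin receptor, from 33.1 CPM in No364 to 213 CPM in No279. Itga8, the receptor for nephronectin, was at 0.336, 1.08 and 0.630 CPM in Cd44+/+ and at 0.833, 7.66 and 4.50 CPM in Cd44-/- tumors. No279 and No364 were above the rest, and No203 lay within the range of the Cd44+/+ tumors. Its log2 fold change of 2.64 was the highest of all subunits (standard error 0.94, unadjusted p = 0.0276 and adjusted p = 0.452 in edgeR), and the unadjusted p was 0.0667 with No316 and No368 summed. A gene on the opposite strand, E030013I19Rik, shares exon sequence with Itga8, and the strand setting of the counting is not given in the sources used here.

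Itgb3, the beta subunit of the osteoclast vitronectin receptor and, with Itga2b, of the platelet fibrinogen receptor, was chosen after its values had been seen. It was at 119, 24.6 and 23.5 CPM in Cd44+/+ and at 146, 71.2 and 8.53 CPM in Cd44-/- tumors. No203, No244 and No279 had the high levels, in both genotypes, and the standard error of 1.05 exceeded the log2 fold change of 0.43. The 4 osteoclast markers summed to 12728, 765 and 762 CPM in Cd44+/+ and to 11087, 9128 and 769 CPM in Cd44-/- tumors, so that the same 3 tumors were high, with no marker at 0. Their part in the level of Itgb3 was not tested. Itga2b, which is also in the list of platelet markers, ranged from 1.86 to 6.54 CPM. Itgb6, which is largely epithelial, and Itgb8 ranged from 0.165 to 2.36 CPM and from 1.85 to 8.02 CPM.

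Itga4, Itga9, Itgae and Itgb7 serve mainly in cell contacts and in the homing of leukocytes. Itga9 was at 48.1, 28.5 and 28.6 CPM in Cd44+/+ and at 27.1, 24.9 and 16.2 CPM in Cd44-/- tumors. The genotypes did not overlap, but No203 was below No316 by less than the Cd44-/- tumors differed among each other (log2 fold change -0.63, standard error 0.38, unadjusted p = 0.146 in edgeR, and -0.34 without No244). Itgb7, the highest of the group per kilobase of exon by the median over the 6 tumors but below Itga9 and Itga4 in No316 and No368, was at 40.2, 5.04 and 5.88 CPM in Cd44+/+ and at 15.7, 64.7 and 7.27 CPM in Cd44-/- tumors. Its high tumors, No279, No244 and No203, were those with the high osteoclast sums. The 5 leukocyte markers were highest in these tumors too. They summed to 752, 812 and 557 CPM there, against 417, 428 and 278.7 CPM in No316, No368 and No364. The part of either cell type in the level of Itgb7 was not tested. Itga4, a receptor for the vascular adhesion protein VCAM1 and fibronectin, ranged from 7.73 CPM in No203 to 47.8 CPM in No316 (log2 fold change -1.30, standard error 0.66), and Itgae, the E-cadherin receptor of epithelial T cells, from 0.313 to 2.04 CPM.

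The leukocyte subunits Itgal, Itgam, Itgax and Itgad share the beta 2 subunit Itgb2 in receptors for ICAM proteins and complement. Itgam, the macrophage and granulocyte subunit, was at 7.06, 78.7 and 79.1 CPM in Cd44+/+ and at 44.5, 114 and 43.8 CPM in Cd44-/- tumors. No244 stood far below the other 5, and the genotypes overlapped (log2 fold change 0.30, standard error 0.87). In No244 the 4 macrophage markers summed to 398 CPM, beside 397 and 400.3 CPM in No316 and No368, and the part of these cells in the level of Itgam was not tested. Itgb2 ranged from 22.1 CPM in No364 to 91.4 CPM in No279, Itgax from 4.32 to 19.2 CPM, Itgal from 2.02 to 9.68 CPM and Itgad from 0.436 to 1.60 CPM. Without No364, the log2 fold change of Itgb2 went from 0.95 to 1.35 (unadjusted p = 0.116 and 0.00515, adjusted p = 0.545 without No364 in edgeR). The 5 leukocyte markers summed to 417 to 812 CPM in Cd44+/+ and to 278.7 to 752 CPM in Cd44-/- tumors, with none at 0, and their part was not tested.

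Itgb1, the beta subunit that most alpha subunits pair with, was the most abundant subunit per kilobase of exon in every tumor. It was at 280.4, 392 and 397 CPM in Cd44+/+ and at 401, 621 and 355 CPM in Cd44-/- tumors. Only No279 stood out clearly, and the genotypes overlapped (log2 fold change 0.36, standard error 0.47, adjusted p = 0.780 in edgeR). Itgb1 made up 41.2% to 64.3% of the beta subunits. By the median over the tumors it had 96.7 CPM per kilobase, followed by Itgb5 with 58.9, Itga10 with 39.9, Lamb2 with 22.6 and Itgav with 15.1, and the lowest were Itgae with 0.0871 and Itgb6 with 0.0614. Neighbors in this order overlapped in their ranges over the tumors for the first 5, although Itgb1 exceeded Itgb5 in each tumor. Summed per kilobase, the alpha subunits reached 44.6 CPM in No364 and 98.7 to 127 CPM in the other tumors, and the beta subunits 135 CPM in No364, 324 CPM in No279 and 167 to 181 CPM in the remaining 4.

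The promoters of the subunits were searched for the motifs through which the intracellular domain of CD44 is described to act, the CD44ICD response element CCTGCG and the TPA response element TGACTCA, and for the RUNX core TGTGGT and the GC box GGGCGG, each on both strands. RefSeq windows of 250 bases before to 50 bases after a start (GRCm38.p6) were matched for 23 of the 37 subunits, with 26 windows. Lama1, Lama4, Lamc1 and Itgb3 were among those without a window. The CD44ICD response element was in 2 of the 26 windows (7.69%), those of Itgb5 and Lama5, against 17.3% of 32851 promoters. The TPA response element was also in 2 (7.69%), those of Itga9 and Itgax, against 5.2% of promoters. The RUNX core was in 3 (11.5%, against 16.8%) and the GC box in 12 (46.2%, against 35.7%). Of the 4 subunits with either CD44 motif, the genotypes did not overlap for Itga9, and overlapped for Itgb5, Lama5 and Itgax. Over all genes they did not overlap for 19.1%, so with 4 subunits this shows nothing about the motifs.

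The stretches of 30 bases with these motifs are printed with the motif in capitals, as the letters the search turned on. They run 5′ to 3′ on the strand of the gene, that is chr9:118711712-118711741 (plus) for Itga9, whose start lies within the gene, chr7:128129483-128129512 (plus) for Itgax, chr16:33829662-33829691 (plus) for Itgb5 and chr2:180225829-180225858 (minus) for Lama5. In Itgax and Itgb5 the capitals are the reverse complement of the motif.
Itga9: ttgatttgcagactggtcTGACTCAaggag
Itgax: cccacctcctcTGAGTCAcgctgacaactt
Itgb5: gagtggcggccCGCAGGagaggggggagga
Lama5: cttgccgggctCCTGCGgtgcgcgctgtcc
The motif of Itgax begins 56 bases before the start, and those of Itga9, Itgb5 and Lama5 begin 39, 9 and 13 bases into the transcript. A match of letters is a description and shows no binding.

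Other genes of the pathway were counted from 3 lists. Of 35 genes of the adhesion machinery inside the cell, 34 were tested, 0 passed in edgeR and 1, Ptk2b, in DESeq2 (2.33% of all genes). At an unadjusted p under 0.05, 3 were higher (6.44% of all genes) and 0 lower (4.31%), and the genotypes did not overlap for 4 higher (9.49% of all genes) and 3 lower genes (9.57%). The median log2 fold change of 0.14 was near the 0.11 of all genes. Ptk2b, the kinase PYK2 of adhesion sites and osteoclasts, was at 11.6, 12.2 and 11.9 CPM in Cd44+/+ and at 30.5, 46.6 and 41.5 CPM in Cd44-/- tumors. Each Cd44-/- tumor exceeded each Cd44+/+ tumor by more than the spread within either genotype, a log2 fold change of 1.73 (standard error 0.32, adjusted p = 0.452 in edgeR and 0.00218 in DESeq2, and 0.183 in DESeq2 with No316 and No368 summed). Vcl, which encodes vinculin, and Cav1, the caveolae protein, were the other 2 genes, with log2 fold changes of 0.83 and 2.18 (unadjusted p = 0.0331 and 0.0397 in edgeR). With No316 and No368 summed, the unadjusted p of Cav1 was 0.0923 in edgeR. Tns2, a tensin, came next over the 6 libraries at -1.08 (unadjusted p = 0.0516 in edgeR). Itgb1bp2, a muscle protein that binds beta 1, was at 44.0 CPM in No244 and at most 2.14 CPM in the other tumors, and is named after its values had been seen.

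Of 15 genes of the basement membrane and of laminin receptors that are not integrins, 11 were tested, 0 passed in either tool, 2 were higher at an unadjusted p under 0.05 (6.44% of all genes) and 0 lower (4.31%), with a median log2 fold change of 0.63 against 0.11 over all genes. Nid1, the nidogen that links laminins to type IV collagen, was at 11.3, 36.8 and 38.2 CPM in Cd44+/+ and at 43.9, 255 and 115 CPM in Cd44-/- tumors. The genotypes did not overlap, with No203 next to No368 (log2 fold change 2.26, standard error 0.77, unadjusted p = 0.0230 in edgeR). Of the 11 genes tested, Nid1 was the only 1 without overlap and higher in Cd44-/- tumors (9.49% of all genes). Col18a1, a collagen of vessel and liver basement membranes, had a log2 fold change of 3.09 (standard error 1.01, unadjusted p = 0.0194), which was 1.85 without No364. Dag1, the laminin receptor dystroglycan, and Col4a2, a chain of type IV collagen, followed at 1.81 and 0.91 (unadjusted p = 0.116 and 0.283 in edgeR).

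Of 20 ligands of integrins outside the laminins, 19 were tested, 0 passed in either tool, and 5 were higher at an unadjusted p under 0.05 (6.44% of all genes), the median log2 fold change of the list being 0.74 against 0.11 over all genes. Beside Icam1, a ligand of the beta 2 integrins, these were the 3 fibrinogen chains Fga, Fgb and Fgg and the vitronectin gene Vtn, all made by hepatocytes. Fga was at 6194 CPM in No364 and at 3.09 to 7.10 CPM in the other tumors, and the log2 fold change of 8.99 was 0.35 without No364. That of Vtn went from 8.38 to -0.09. These 4 ligands, of which Fgb is also in the list of hepatocyte markers, were high in No364, the tumor with 132271 CPM of these markers, and stood at 2.54 to 10.51 CPM in the other Cd44-/- tumors. The part of hepatocytes in their levels was not tested. Spp1, which encodes osteopontin, a ligand of integrins and of CD44, was named after its values had been seen, as was Icam1. Of the 19 ligands tested, Spp1 was the only 1 without overlap, being lower in Cd44-/- tumors (9.57% of all genes). It was at 3525, 6416 and 6349 CPM in Cd44+/+ and 3146, 1444 and 2233 CPM in Cd44-/- tumors (log2 fold change -1.26, standard error 0.83).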

How the data were processed

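Total RNA of 6 osteosarcomas was sequenced from stranded mRNA libraries. The authors aligned reads to GRCm38 (HISAT2 2.0.2) and counted them per Ensembl gene with featureCounts (Subread 2.0.0), and deposited raw counts without normalization. Symbols were found for 37607 of the 39179 genes with GENCODE M21. Genotypes were compared over all tested genes with edgeR 4.0.16 in R 4.3.3 (TMM, filterByExpr, quasi-likelihood F test, Benjamini-Hochberg adjustment, threshold 0.05), with genotype as the only factor. The study used DESeq2, which is an alternative here (1.42.0), as is limma-voom (limma 3.58.1). The fits were tested on simulated data. The standard error is the log2 fold change over the square root of F. Means use No316 and No368 as 1 sample. Nothing says that tumors differ in batch. Exon lengths for values per kilobase are those of GENCODE M21.

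The subunits, lists and tests were chosen with earlier results of these data known. Values in every tumor are given for subunits whose genotypes did not overlap, those with an unadjusted p under 0.05 or a DESeq2 call, and the highest per kilobase in each role group. No subunit met the further rule of a highest tumor at 10 times the median tumor or more. Partner genes named are those with up to 4 smallest p-values per list, and further ones are marked. The values of 1 subunit are not reported here, although it is part of all counts over the subunits. Exons of 12 subunits overlap another gene and their counts are uncertain. Counting limits cover counting error only.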

Additional observations from a re-analysis of the deposited data

How the results depend on the processing

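No subunit was called by edgeR with library size alone, DESeq2 size factors, mitochondrial genes left out, either low-count filter, No316 and No368 summed, or any tumor left out (0 to 0 called), nor by limma-voom. DESeq2 called 1 subunit with its defaults, without its Cook's distance filter, and without No364, a setting chosen after seeing the data. Of all genes it called 2.33% with the defaults and 2.36% without No364. The share without the Cook's distance filter was not taken. At an unadjusted p under 0.05 there were 3 subunits in the main fit, against 10.7% of all genes. The count became 1 with No316 and No368 summed in edgeR (4.26% of genes). It was 7 in DESeq2 without No364 (9.53% of genes, chosen after seeing the data), and 5 with limma-voom. With any tumor left out it ran from 1 to 7, with 7 without No203, 6 without No364 (8.82% of genes), and 1 without No279 or without No368. The share over all genes was not taken for limma-voom or for the fits without No203, No279 or No368. Their counts therefore cannot be set against those of all genes. The count of pathway genes called was 0 in edgeR with any tumor left out (0 to 0). In DESeq2 it was 1 with the defaults (2.33% of all genes) and 1 without No364 (2.36% of genes). Without the Cook's distance filter it was 7, 4 of them the liver-made ligands Fga, Fgb, Fgg and Vtn. The share over all genes was not taken at that setting, so the 7 cannot be set against it. The median log2 fold change of the subunits ran from -0.031 to 0.59 with any tumor left out. Subunits whose genotypes did not overlap numbered 10 without No364 (28.7% of all genes, chosen after seeing the data). Fold changes were followed for the 6 subunits without overlap and for Itga3, Itga8 and Itga10. These 9 kept their sign in 160 of 160 values under the alternatives. They were picked from these same data, so the count is no test of them. Among the other subunits, Lamc3 went from 0.78 to -1.20 and Itgb6 from 0.50 to -0.92 without No364. Itgal, Itgb5 and Itga7 also changed sign there.

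No paired analysis was possible because the labels give each tumor its own mouse number and nothing that ties a Cd44+/+ to a Cd44-/- mouse. With 3 tumors a genotype, of which 2 libraries are nearly alike, and a coefficient of variation of 0.708, the p-values measure the spread between these libraries only. Depth limits the low subunits, with 5 to 45 counts of Itgb6 and 5 to 39 counts of Itgae per tumor.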
